A study of Mus musculus with 10 samples.

Results

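Among 10 arrays of sorted mouse cortical astrocytes, 3 carried less signal of Cx3cr1, the fractalkine receptor that marks microglia, than the other 7. These were array 1 of the wild-type controls and arrays 1 and 2 of the animals labelled FMR1-KO. The sides were chosen by this measured level: an array was placed on the low side when the log2 level of its Cx3cr1 probe set was under 11 and on the high side at 11 or above, so that 3 of 10 arrays were low and 7 of 10 were high. The low side held 1 control and 2 KO-labelled arrays, and the high side held 4 control and 3 KO-labelled arrays. All genes were compared between the sides with the labelled genotype as a covariate.

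The samples were total RNA from the cortex of 8-week-old mice, 5 labelled wild-type (control) and 5 labelled FMR1-KO. Every sample was sorted by flow cytometry on an EGFP reporter that marks astrocytes. The promoter behind the reporter, the kind of Fmr1 allele, and the number of animals behind a sample could not be read from the labels. The replicates are called biological in the labels, but nothing says that they came from separate animals, so a p-value here weighs a difference only against the spread among the samples, which may be technical. Levels are log2 signals of Affymetrix arrays, and 17712 genes were measured after a filter on dim probe sets.

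Microglia are the resident immune cells of the brain. They survey tissue through purinergic, chemokine and colony-stimulating-factor receptors, clear debris with complement, Fc receptors and the TREM2 complex, and depend on the transcription factor PU.1 (gene Spi1). Astrocytes take up glutamate and potassium, supply lactate and lipids to neurons, and wrap vessels with endfeet that carry aquaporin 4. A sort for a reporter in astrocytes is meant to leave microglia behind.

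Cx3cr1 chose the sides, so its values are a description. On the low side Cx3cr1 was 10.95 on control 1, 10.64 on KO-labelled 1 and 10.10 on KO-labelled 2. On the high side it was 11.51, 11.87, 11.70 and 11.65 on controls 2 to 5 and 11.53, 11.46 and 11.44 on KO-labelled 3 to 5. The arrays nearest the threshold were control 1 inside it at 10.95 and KO-labelled 5 outside it at 11.44. Every other gene was read from the same arrays and is described in the same way, with the fitted difference, low minus high, and its standard error (SE), and with no test of the split.

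The labels were checked against marker lists. Of 40 astrocyte identity genes 39 were measured, and their average level lay between 9.47 and 10.64 on the 10 arrays. Of the 22 microglial surface genes listed beside Cx3cr1, 21 were measured and averaged 8.85 to 10.54, so transcripts of both cell types were present on every array. The Fmr1 probe set was not lower in the KO-labelled animals: it read 8.28, 7.60, 8.03, 8.17 and 8.10 in controls 1 to 5 and 8.32, 8.38, 8.26, 8.15 and 8.01 in KO-labelled 1 to 5. Which part of the gene was disrupted, and whether this probe set lies in it, could not be read from the labels. Xist, transcript of the inactive X chromosome, was 10.60 and 10.98 on controls 2 and 3 and 4.98 to 5.23 on the other 8 arrays. Both Xist-high arrays were on the high side. The Y chromosome gene Uty was 4.82 and 4.77 on controls 2 and 3 and 7.64 to 8.30 on the other 8 arrays.

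The promoters of the genes that were lower on the low side without overlap were searched first. Of these 1281 genes beside Cx3cr1, 64 are in the microglial lists. Promoter windows of 300 bases, from 250 before to 50 after a transcription start, came from RefSeq (GRCm38.p6), and 17076 windows of 13719 of the 17712 genes were matched by gene. The PU.1-type letters GAGGAAGT, on either strand, were in 504 of all 17076 windows (2.95%). They were in 89 of the 1377 windows (6.46%) of genes whose level on every low array was below every high array, and in 43 of the 1851 windows (2.32%) of genes above on every low array. The 1377 windows came from 1012 genes and the 1851 from 1386, so a gene with several windows can count more than once. Among 72 windows of the microglial lists 6 held the letters (8.33%), and among 153 windows of the astrocyte lists 0 did. The window of Cx3cr1 held none.

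To show what such a match looks like, 100 bases before the start are printed for the 4 microglial genes in which the match lay there, 5′ to 3′ on the gene's strand, with the match in capitals. Inpp5d, which encodes the phosphatase SHIP1, lies on chr1:87620212-87620311 (plus strand). Vav1, an exchange factor of blood cells, lies on chr17:57279000-57279099 (plus strand). Adora3, an adenosine receptor of microglia, lies on chr3:105904321-105904420 (plus strand). For C1qc, a chain of complement C1q, the stretch from 241 to 142 bases before the start is given, on chr4:136893056-136893155 (minus strand).
Inpp5d: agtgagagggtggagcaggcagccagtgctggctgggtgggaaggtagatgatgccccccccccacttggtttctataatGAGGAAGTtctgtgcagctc
Vav1: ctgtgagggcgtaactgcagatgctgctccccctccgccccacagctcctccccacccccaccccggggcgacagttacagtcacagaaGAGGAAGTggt
Adora3: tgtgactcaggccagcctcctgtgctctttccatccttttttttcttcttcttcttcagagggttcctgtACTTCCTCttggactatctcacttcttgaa
C1qc: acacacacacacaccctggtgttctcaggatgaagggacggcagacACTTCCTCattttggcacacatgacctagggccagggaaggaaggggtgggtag
Inpp5d and Vav1 carried the letters as written, close before the start, while Adora3 and C1qc carried them on the other strand as ACTTCCTC. In the other 2 microglial genes with a match, Cd53 and Cyth4, it lay after the start. Inpp5d, Vav1, Adora3 and C1qc differed between the sides by -1.34, -1.31, -0.56 and -0.97 on the log2 scale.

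In all, 10 motifs were searched on both strands. AGGAAGTG, which overlaps the PU.1-type letters by 7 bases, was in 7.63% of the windows of lower genes, 2.92% of those of higher genes and 4.17% of all windows. ACCGGAAGT, the ETS letters common in housekeeping promoters, was in 0.654% of the windows of lower genes, 0.702% of those of higher genes and 1.62% of all. The AP-1 letters TGACTCA were in 5.08%, 3.40% and 4.30%, and TGANTCA, which contains them, in 6.83%, 4.92% and 6.15%. TGACGTCA, the cyclic AMP response element, was in 1.82%, 2.70% and 2.58%. The E-box CACGTG was in 8.71%, 8.81% and 8.88%, and TTGGCA, the core of a nuclear factor I site, in 12.1%, 13.9% and 12.5%. The SOX letters CTTTGTT were in 3.99%, 4.92% and 4.52%, and AACAATG in 2.32%, 2.0% and 2.52%. A match is a run of letters and was not tested as a binding site.

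Of the 17712 genes, 1282 (7.24%) were lower on every low array than on any high array and 1778 (10.0%) were higher on every low array. The counts without overlap in the gene lists below are to be read beside these shares. Differences of 2-fold or more ran mostly one way: 205 genes (1.16%) were at least 2-fold lower on the low side and 37 (0.209%) at least 2-fold higher, and the median over all genes was 0.00. Ranges did not overlap for 195 of the 205 and 32 of the 37. Leaving out an array can only keep or raise the counts without overlap. Without control 1 these were 1971 and 3144, and 174 genes were at least 2-fold higher. Without control 4 that count was 62, and without KO-labelled 2 there were 97 genes at least 2-fold lower.

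**Figure D1:**
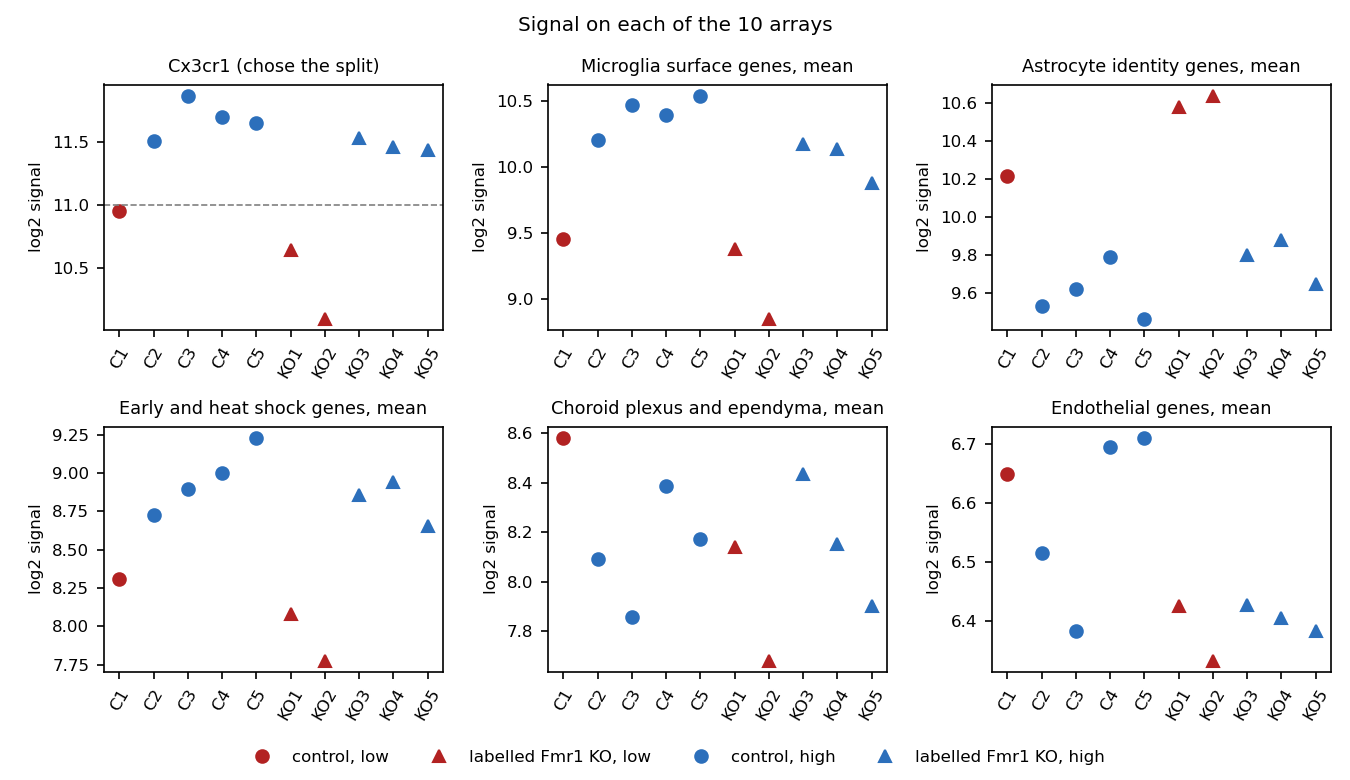
Log2 signal on each of the 10 arrays (C, control; KO, labelled Fmr1 KO) for Cx3cr1, with the threshold of 11 as a dashed line, and for the average of 5 gene lists; red marks the low side and blue the high side, and each axis has its own range. Microglial surface genes and early genes are below, and astrocyte identity genes above, on all 3 low arrays, while choroid plexus and endothelial averages of the 2 sides overlap.

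The microglial genes were lower together. In the 4 microglial lists, 70 of 71 measured genes were lower on the low side, 64 had ranges that did not overlap and 37 were at least 2-fold lower. Their median difference was -1.03, with an interquartile range from -1.09 to -0.89. Over all genes, 8824 of 17712 were lower, 7.24% were lower without overlap and 1.16% were at least 2-fold lower. The microglial genes share the cell type of the gene that chose the sides, and nothing is tested by the counts. In such bulk RNA, fewer microglia and less RNA per microglial cell cannot be told apart.

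Among the surface receptors, 19 of 21 had no overlap. Itgam, the CD11b integrin chain, was 10.23 on control 1, 9.90 on KO-labelled 1 and 9.22 on KO-labelled 2, against a lowest high array of 10.85, a median of 11.10 and a highest of 11.52. The difference was -1.24 ± 0.16 (SE, n = 3 and 7), or 2.36-fold. Cd86, a costimulatory ligand for T cells, was 8.10, 7.78 and 7.06 on the same 3 arrays and 8.70, 9.07 and 9.43 (lowest, median, highest) on the high side, a difference of -1.32 ± 0.17. Siglech, a sialic acid lectin of microglia, differed by -1.21 ± 0.15, Cd33, an inhibitory receptor of the same family, by -1.16 ± 0.15, and the Fc-receptor-like gene Fcrls by -1.12 ± 0.14. KO-labelled 2 was the lowest array for each of these 5 genes.

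The genes by which microglia are usually recognised showed the same pattern and are named here after their values were seen. P2ry12, the receptor through which microglia sense ADP, was 10.84, 11.03 and 10.63 on control 1, KO-labelled 1 and KO-labelled 2 and 11.62 to 12.13 on the high side, a difference of -0.99 ± 0.11. Tmem119 was 8.25, 8.17 and 7.67 against 8.47 to 9.43, and Csf1r, the receptor that microglia need to survive, was 11.77, 11.52 and 10.92 against 12.30 to 12.75. The 1 gene of the 71 that was not lower was Adgrg1, an adhesion receptor that astrocytes and their precursors also express. It was 11.22, 11.43 and 11.62 on the low side and 10.97 to 11.62 on the high side, so that the sides overlapped.

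The genes of phagocytosis and innate sensing had 16 of 19 members without overlap and a median of -0.95. Inpp5d, whose promoter is printed above, was 9.59, 9.51 and 8.64 on control 1, KO-labelled 1 and KO-labelled 2, and 10.35 (lowest), 10.59 (median) and 10.92 (highest) on the high side. Its difference, -1.34 ± 0.17, was the largest of this list. Syk, the kinase under the TREM2 and Fc receptor adaptors, differed by -1.09 ± 0.14, the Fc receptor Fcgr1 by -1.07 ± 0.13, the adaptor Tyrobp by -1.06 ± 0.17 and Unc93b1, which carries Toll-like receptors to endosomes, by -1.05 ± 0.15. Tyrobp was 8.70, 8.60 and 7.64 on the 3 low arrays, and its lowest high array was KO-labelled 5 at 8.92. C1qc, also printed above, was 9.69, 9.55 and 9.05 against 9.81 to 10.83.

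Of the signalling and cytoskeletal genes of leukocytes, 18 of 18 were lower without overlap, with a median of -1.09. Vav1 was 8.69, 8.29 and 7.93 on control 1, KO-labelled 1 and KO-labelled 2, and 9.28, 9.68 and 9.98 (lowest, median, highest) on the high side, a difference of -1.31 ± 0.16. Nckap1l, a blood-cell subunit of the WAVE complex that drives actin branching, differed by -1.31 ± 0.18. Cyth4, an ARF exchange factor, differed by -1.30 ± 0.16, and the DOCK-family exchange factors Dock2 and Dock8 by -1.29 ± 0.18 and -1.29 ± 0.17. None of the 5 is a microglial surface marker, and all were lowest on KO-labelled 2.

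Among transcription factors of microglia 11 of 13 had no overlap, with a median of -0.97. Mef2c was 8.51 on control 1, 8.56 on KO-labelled 1 and 8.10 on KO-labelled 2, and 9.48 to 9.87 on the high side, a difference of -1.24 ± 0.12. Sall1, a factor that within the brain's immune cells is typical of microglia, was 9.23, 9.16 and 8.93 against 10.06 to 10.35, a difference of -1.07 ± 0.10. For Sall1 the gap between the sides was wider than the spread within either. Ikzf1, Maf and Runx1, which act in several blood lineages, differed by -1.09 ± 0.16, -1.06 ± 0.15 and -1.04 ± 0.17. Spi1, which encodes PU.1, was 7.80, 7.79 and 7.18 against 8.39 to 8.98, a difference of -0.97 ± 0.13.

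**Figure D2:**
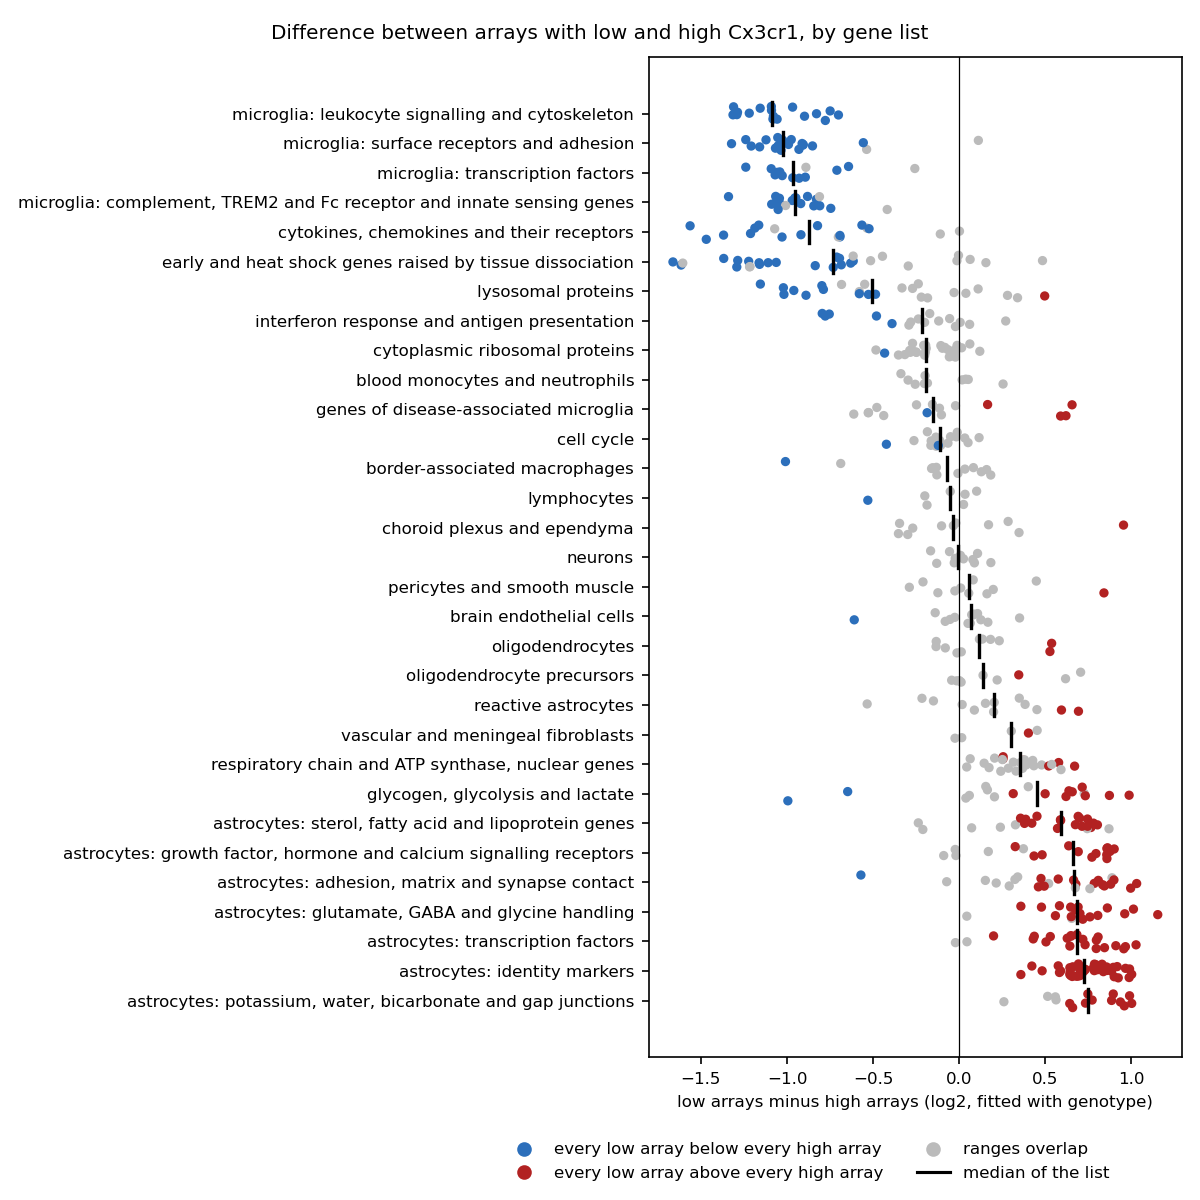
Fitted log2 difference, low minus high arrays, of each measured gene (points), by gene list (rows), with the list median as a black bar; blue and red points are genes whose ranges do not overlap and grey points overlap, and the vertical scatter within a list has no meaning. The microglial lists have medians near -1, 7 astrocyte lists medians from 0.59 to 0.75, and most lists of other cell types medians near 0.

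Other immune lists were lower to different degrees. Of 18 cytokines, chemokines and their receptors, 13 were lower without overlap, with a median of -0.87. Ccl3, a chemokine that attracts monocytes, was 9.93, 9.85 and 8.42 on control 1, KO-labelled 1 and KO-labelled 2, and 10.68 (lowest), 11.03 (median) and 11.26 (highest) on the high side, a difference of -1.56 ± 0.24. Il1a, an alarm cytokine, differed by -1.47 ± 0.16, the interleukin 10 receptor chain Il10ra by -1.37 ± 0.15, Tgfb1, on whose signal microglial identity depends, by -1.21 ± 0.11, and Csf3r by -1.19 ± 0.16. Of 16 genes of interferon response and antigen presentation 5 were lower without overlap. Of these 5, Bst2 differed most, by -0.80 ± 0.18, and the class I genes H2-K1 and B2m by -0.78 ± 0.14 and -0.75 ± 0.15.

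Lysosomal genes were divided. Of 24, 10 were lower without overlap, beside 7.24% of all genes, 1 was higher and the median was -0.51. Those at the low end are known for their high expression in macrophages: Cd68 was 9.66, 9.72 and 9.41 on control 1, KO-labelled 1 and KO-labelled 2 and 10.46 to 11.12 on the high side, a difference of -1.15 ± 0.11, and the proteases Ctsh, Lgmn and Ctss differed by -1.02 ± 0.13, -0.96 ± 0.12 and -0.89 ± 0.15. Man2b1, a lysosomal mannosidase, differed by -1.02 ± 0.14. The 1 gene that was higher was Cd63, a tetraspanin of late endosomes found in most cells, at 9.50, 9.18 and 9.25 on the low arrays and 8.65 to 9.14 on the high arrays.

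Genes named for disease-associated microglia pointed both ways. Of 15, 1 was lower without overlap, 4 were higher and the median was -0.16. The 4 that were higher were Fabp5, Axl, Apoe and Csf1. Apoe, the lipoprotein that astrocytes secrete in the healthy brain, was 10.25, 10.60 and 10.73 on control 1, KO-labelled 1 and KO-labelled 2 and 9.68 to 10.09 on the high side, a difference of 0.59 ± 0.10. Axl, a receptor for apoptotic cells, differed by 0.62 ± 0.12 and the fatty acid carrier Fabp5 by 0.66 ± 0.12. Cybb, the NADPH oxidase subunit, was 8.83 on control 5 and 5.74 to 7.41 on the other 9 arrays.

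Among markers of other immune cells, few had ranges apart, at shares that can be read beside the 7.24% of all genes that were lower without overlap. Of 12 genes of border-associated macrophages, the macrophages of meninges and vessels, 1 was lower without overlap, Stab1, with a difference of -1.01 ± 0.21, and the list median was -0.07. Of 10 genes of monocytes and neutrophils none had ranges apart, with a median of -0.19. Of 7 lymphocyte genes 1 did, Cd79b at -0.53 ± 0.10, with a median of -0.05. Cd79b was 6.37, 6.12 and 5.95 on the low side and 6.61 to 6.95 on the high side.

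Astrocyte genes were higher together on the low side. Over 7 astrocyte lists, 134 of 142 genes were higher and 110 had no overlap, with a median of 0.69 and an interquartile range from 0.48 to 0.82. Over all genes, 8888 of 17712 were higher and 10.0% were higher without overlap. Only 5 of the 142 were at least 2-fold higher, beside 0.209% of all genes. The differences were thus smaller than those of the microglial genes, whose median was -1.03. All of 39 identity genes were higher without overlap, from Glul at 0.36 to Gjb6 at 1.0.

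Gjb6, the astrocyte connexin 30, was 9.78 on control 1, 10.47 on KO-labelled 1 and 10.50 on KO-labelled 2. On the high side it was 8.90 (lowest), 9.22 (median) and 9.49 (highest), a difference of 1.0 ± 0.15 (SE, n = 3 and 7). Mlc1, a membrane protein of endfeet, was 10.78, 11.05 and 11.13 against 9.69, 9.85 and 10.19, a difference of 0.99 ± 0.12. Ppp1r3c, which directs glycogen synthesis, the metallothionein Mt3 and the claudin Cldn10 differed by 0.99 ± 0.13, 0.97 ± 0.14 and 0.92 ± 0.16. Control 1 lay between the KO-labelled low arrays and the high arrays for each of these 5.

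In the endfoot and ion balance list 11 of 15 genes had no overlap, with a median of 0.75. Beside Gjb6 and Mlc1, the potassium channel Kcnj16 was 7.86, 8.51 and 8.68 on control 1, KO-labelled 1 and KO-labelled 2 and 7.21 to 7.49 on the high side, a difference of 0.96 ± 0.12. Hepacam, the adhesion protein that anchors Mlc1, differed by 0.94 ± 0.11 and Gja1, connexin 43, by 0.89 ± 0.14. Aqp4, the water channel of endfeet, was 10.10, 10.72 and 10.90 against 9.34 to 9.97, a difference of 0.88 ± 0.15.

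For glutamate, GABA and glycine handling 16 of 18 genes had no overlap, with a median of 0.68. The leading members were receptor subunits. Gabrg1, a GABA-A receptor subunit, was 9.07, 9.63 and 9.92 on control 1, KO-labelled 1 and KO-labelled 2 and 7.92, 8.36 and 8.66 (lowest, median, highest) on the high side, a difference of 1.15 ± 0.17 or 2.22-fold. Gabra2 and Gabrb1 of the same receptor differed by 1.01 ± 0.15 and 0.96 ± 0.12, the metabotropic receptor Grm3 by 0.86 ± 0.11 and the NMDA receptor subunit Grin2c by 0.80 ± 0.14. The glutamate transporters Slc1a2 and Slc1a3 differed by 0.58 ± 0.12 and 0.65 ± 0.13. For Slc1a2 the low arrays were 11.68, 11.85 and 11.73 and the high arrays 10.71 to 11.38.

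Adhesion, matrix and synapse contact genes were less uniform, with 14 of 25 higher without overlap, 1 lower and a median of 0.66. Cdh10 was 9.69, 10.26 and 10.32 on control 1, KO-labelled 1 and KO-labelled 2 and 8.64 to 9.20 on the high side, a difference of 1.03 ± 0.11. The adhesion molecules Ncam2 and Lsamp differed by 1.0 ± 0.14 and 0.90 ± 0.10, and Cdh20 by 0.88 ± 0.15. Hapln1, a link protein of hyaluronan matrix, differed by 0.89 ± 0.19 but overlapped between the sides. The 1 gene that was lower was Sparc, an antagonist of hevin at synapses that microglia also make, at 10.29, 10.22 and 9.79 against 10.42 to 10.97.

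The transcription factors had 20 of 23 genes higher without overlap and a median of 0.68. Hes5, a target of Notch signalling, was 9.06, 8.90 and 9.03 on control 1, KO-labelled 1 and KO-labelled 2 and 7.14, 8.01 and 8.55 on the high side, a difference of 1.03 ± 0.22. Dbx2, Rorb, Id2 and Sox2 differed by 0.96 ± 0.16, 0.96 ± 0.18, 0.91 ± 0.15 and 0.84 ± 0.15. For Rorb the sides nearly touched, with control 1 at 9.50 and control 4 at 9.48.

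Of 18 receptors for growth factors, hormones and calcium signals, 13 had no overlap, with a median of 0.66. Gpr37l1, an orphan receptor of astrocytes, was 11.10, 11.56 and 11.66 on control 1, KO-labelled 1 and KO-labelled 2 and 10.21 to 10.76 on the high side, a difference of 0.90 ± 0.15. The sphingosine phosphate receptor S1pr1, the endothelin receptor Ednrb, Fgfr3 and the BMP receptor Bmpr1b differed by 0.88 ± 0.18, 0.86 ± 0.17, 0.86 ± 0.10 and 0.86 ± 0.15.

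In the list of sterol, fatty acid and lipoprotein genes 17 of 24 had no overlap, with a median of 0.59. Fabp7 led at 0.87 ± 0.21 and overlapped, since control 2 read 9.94 on the high side and control 1 read 9.79 on the low side. Lcat, which esterifies cholesterol, the fatty acid elongase Elovl5, the desaturase Fads2 and Sqle of sterol synthesis differed by 0.80 ± 0.17, 0.78 ± 0.16, 0.76 ± 0.10 and 0.75 ± 0.16. Fads2 was 10.71, 11.10 and 11.11 on control 1, KO-labelled 1 and KO-labelled 2 and 9.69 to 10.49 on the high side.

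Genes of glycogen, glycolysis and lactate pointed both ways. Of 18, 9 were higher without overlap and 2 lower, with a median of 0.45. Pfkm, a phosphofructokinase, and the lactate transporter Slc16a1 were higher by 0.87 ± 0.13 and 0.73 ± 0.17. The 2 that were lower were Hk2, a hexokinase, at 7.91, 7.66 and 7.09 on control 1, KO-labelled 1 and KO-labelled 2 against 8.19 to 9.03, and Slc16a7, another lactate transporter, at 7.0, 7.07 and 6.49 against 7.30 to 7.92. Their differences were -1.0 ± 0.18 and -0.65 ± 0.13.

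Reactive astrocyte genes did not share the shift of the other astrocyte lists: 2 of 13 were higher without overlap, beside 10.0% of all genes, with a median of 0.20. These were Gfap, the intermediate filament of astrocytes, with a difference of 0.69 ± 0.11, and the complement gene C4b with 0.59 ± 0.11. Gfap was 7.88, 8.19 and 8.25 on the low side and 7.23 to 7.66 on the high side. The oncostatin M receptor Osmr and Serpina3n differed by 0.45 ± 0.12 and 0.38 ± 0.10 and overlapped. Srgn, a proteoglycan also made by leukocytes, differed the other way by -0.53 ± 0.18 and overlapped, at 7.77, 8.25 and 7.57 on control 1, KO-labelled 1 and KO-labelled 2 against 8.03 to 9.08.

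Early genes and heat shock genes, which tissue dissociation is known to raise in brain cells, were lower on the low side. Of 29, 17 were lower without overlap, none was higher and 13 were at least 2-fold lower, with a median of -0.73. Of all genes, 7.24% were lower without overlap and 1.16% at least 2-fold lower. The stress factor Atf3, with the largest difference of any named gene, was 9.44 on control 1, 9.0 on KO-labelled 1 and 7.80 on KO-labelled 2. On the high side it was 10.05, 10.57 and 10.64 (lowest, median, highest), a difference of -1.66 ± 0.25 or 3.17-fold. Egr1 was 8.66, 8.85 and 8.15 against 9.80, 10.23 and 10.91, a difference of -1.61 ± 0.20. Jun of the AP-1 complex and the antiproliferative gene Btg2 differed by -1.37 ± 0.19 and -1.29 ± 0.18. Hspa1a, the inducible heat shock protein 70, differed by -1.61 ± 0.68 but overlapped, with controls 2 to 5 at 9.83, 10.24, 7.52 and 10.75. The 21 microglial surface genes were low on the same arrays, with averages of 9.46, 9.38 and 8.85 against 9.88 to 10.54, and their part in the difference was not tested.

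In most lists of other brain cells 1 or no gene had ranges apart, a count near the 7.24% lower and 10.0% higher without overlap among all genes. Of 12 neuronal genes none had ranges apart, with a median of -0.01. Among 14 endothelial genes 1 was lower without overlap and the median was 0.07. That gene was Pecam1, the vessel adhesion molecule CD31 that leukocytes also carry, at 6.88, 6.76 and 6.44 against 7.06 to 7.74. Among 11 pericyte and smooth muscle genes 1 was higher, Pdgfrb, at 9.49, 9.89 and 10.05 on control 1, KO-labelled 1 and KO-labelled 2 against 8.56 to 9.11, a difference of 0.84 ± 0.11. Of 11 oligodendrocyte genes 2 were higher, Cnp and Aspa by 0.54 ± 0.14 and 0.53 ± 0.11, with a list median of 0.12. Of 9 precursor genes Vcan was higher without overlap by 0.35 ± 0.12, with a list median of 0.14. Olig1 and Olig2, the factors of that lineage, were 8.02 and 8.25 on KO-labelled 1 and 8.38 and 8.76 on KO-labelled 2, whereas on control 1 they were 7.41 and 7.73, within the range of the high side. Of 5 fibroblast genes 4 were higher, with a median of 0.30, and 1 of them without overlap, the collagen Col1a2, by 0.40 ± 0.11.

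Of 11 choroid plexus and ependymal genes, 7 were higher on the low side within controls and lower within KO-labelled arrays, and 4 were higher within both. Their median was -0.03 over both genotypes, 0.36 within controls and -0.49 within KO-labelled arrays. Ttr, the thyroxine carrier that choroid plexus secretes, was 13.80 on control 1 and 13.39 to 13.76 on controls 2 to 5, but 13.20 and 12.66 on KO-labelled 1 and 2 and 13.38 to 13.69 on KO-labelled 3 to 5. Kl, which encodes klotho, differed by 0.81 within controls and by -1.13 within KO-labelled arrays. In a model with an interaction of genotype and side, added after the data were seen, the interaction of Kl was -1.95 ± 0.56 (limma, adjusted p = 0.431 over all genes) and that of Ttr -0.86 ± 0.27 (adjusted p = 0.477). No gene passed in that model: 0 of 17712 had an adjusted p under 0.05, the smallest being 0.204, and 1300 had an unadjusted p under 0.05. The ciliary gene Tmem212 was higher by 0.95 ± 0.15 in the joint fit, by 0.52 within controls and by 1.24 within KO-labelled arrays, and the dynein light chain gene Dynlrb2 by 0.36 and 0.34 within the 2 genotypes.

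General cell functions differed less. All 25 respiratory chain and ATP synthase genes were higher on the low side, with a median of 0.36. Of them 6 had no overlap, beside 10.0% of all genes. Sdhc of complex II was 8.61, 8.32 and 8.15 on control 1, KO-labelled 1 and KO-labelled 2 and 7.36 to 8.04 on the high side, a difference of 0.67 ± 0.14. Of 29 ribosomal protein genes 26 were lower and 1 had no overlap, Rpl4 at -0.43 ± 0.12, with a median of -0.19. That 1 gene is 3.45% of the list, under the 7.24% of all genes. Of 17 cell cycle genes 2 were lower without overlap, beside 7.24% of all genes, and Mcm3 of the replication helicase differed most, by -0.42 ± 0.11.

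Among the 15 genes with the largest negative differences without overlap were Nav3 at -1.51 ± 0.16, Gna15, a G protein of blood cells, at -1.47 ± 0.15, Gpr84, a fatty acid receptor of activated macrophages, at -1.37 ± 0.15, Pik3cg, the leukocyte PI3 kinase, at -1.36 ± 0.19, Casp8 at -1.35 ± 0.17 and Pde3b at -1.33 ± 0.17. Gpr84 was 7.27, 7.52 and 6.89 on control 1, KO-labelled 1 and KO-labelled 2 and 8.33 to 9.01 on the high side. Fam71a, at -1.40 ± 0.23, ranged from 6.42 to 8.10 on the high side.

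At the other end, Cdh19 was 7.64, 8.67 and 8.61 on control 1, KO-labelled 1 and KO-labelled 2 and 6.55 to 7.40 on the high side, a difference of 1.29 ± 0.21. Mfsd2a, a lipid transporter, differed by 1.28 ± 0.23, the peptidase Folh1 by 1.24 ± 0.14, the Wnt receptor Fzd2 by 1.24 ± 0.19, Etnppl, an astrocyte enzyme of phosphoethanolamine breakdown, by 1.2 ± 0.34 and the peptide hormone Apln by 1.18 ± 0.21. The other 9 ran from Mmd2 at 1.06 to Lrrc8c at 1.15, with the glycine receptor subunit Glrb at 1.15 ± 0.16 and the hypoxia-inducible factor gene Hif3a at 1.15 ± 0.21. For Cdh19, Mfsd2a, Folh1, Fzd2, Apln, Glrb and Stoml3, control 1 lay close to the high arrays, and without it the difference was 1.74, 1.74, 1.48, 1.61, 1.57, 1.51 and 1.57.

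**Figure D3:**
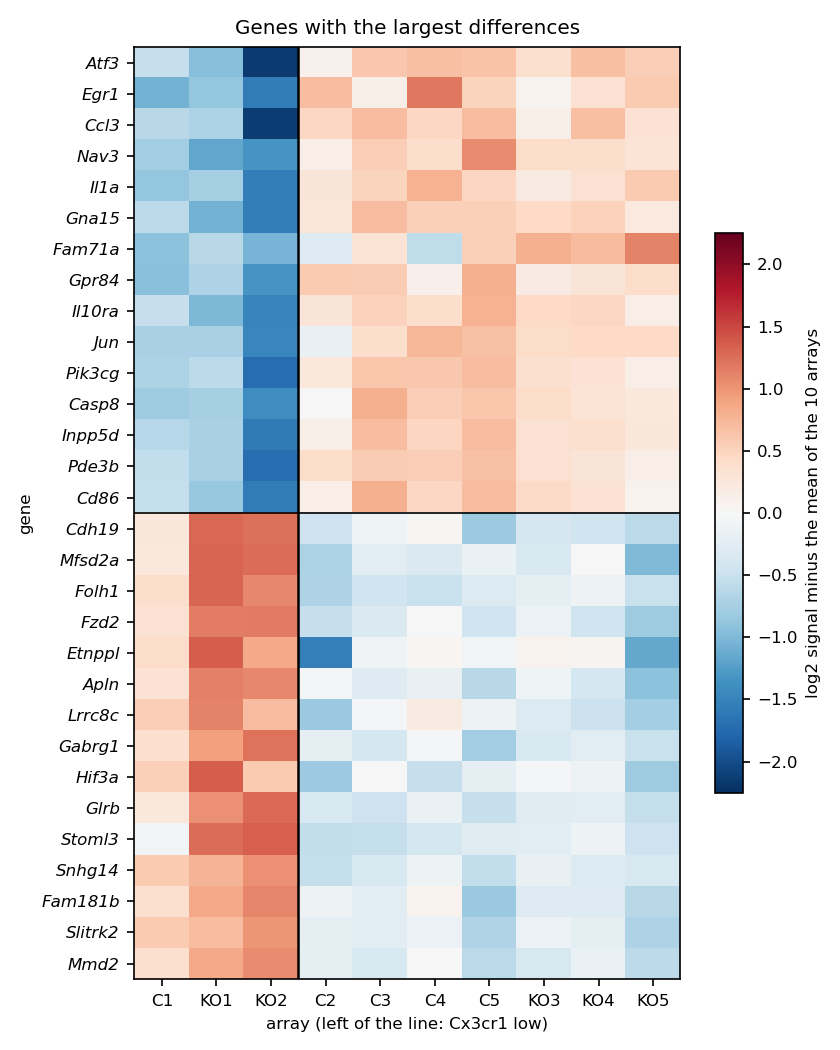
Log2 signal minus the mean of the 10 arrays for the 15 genes with the largest negative and the 15 with the largest positive difference without overlap (rows), with the 3 low arrays left of the vertical line and the 7 high arrays right of it (C, control; KO, labelled Fmr1 KO). Blue is below and red above the gene's mean; KO-labelled 2 is the darkest blue column in the upper block, and control 1 is mostly the palest of the low arrays in the lower block.

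The 3 low arrays were not alike. Of the 1282 genes lower without overlap, KO-labelled 2 was the lowest array for 955, KO-labelled 1 for 166 and control 1 for 161. Of the 1778 higher genes, KO-labelled 2 was the highest for 1086, KO-labelled 1 for 526 and control 1 for 166. Among the 71 microglial genes KO-labelled 2 was lowest for 68, and 50 followed the order KO-labelled 2, KO-labelled 1, control 1. This is also the order of Cx3cr1 itself. Among the 142 astrocyte genes 89 followed the reverse order, with control 1 the lowest of the 3. The first principal component of all genes, 48.5% of the variance, put the 3 low arrays at -45.2, -31.0 and -16.3 in the same order and the 7 high arrays at 7.92 to 23.0.

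Since the genotypes share no array, the difference could be read separately in each. The same Cx3cr1 threshold chose the low arrays of both genotypes, so a like direction in both is a description and tests nothing. Control 1 was compared with the mean of controls 2 to 5, and the mean of KO-labelled 1 and 2 with that of KO-labelled 3 to 5. Across genes, which are not independent replicates, the 2 differences had a Pearson r of 0.614. In all, 5648 genes were lower in both, 5676 were higher in both and 6388 had opposite signs. Of the 71 microglial genes 70 were lower in both, with medians of -0.94 within controls and -1.04 within KO-labelled arrays. The 142 astrocyte genes had medians of 0.52 and 0.76. The within-control value rests on 1 low array.

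**Figure D4:**
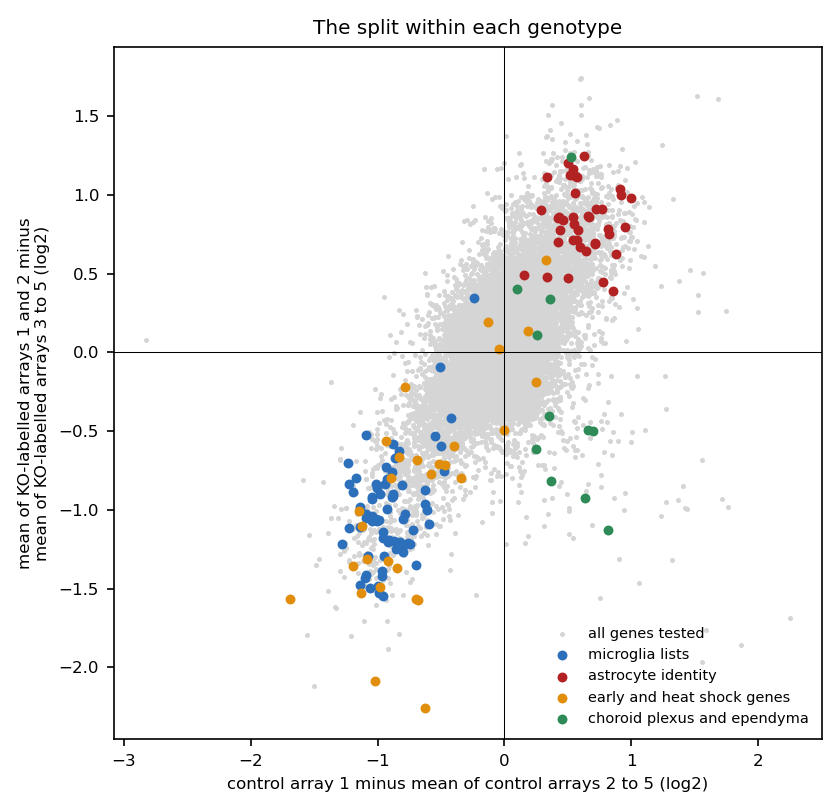
Each point is a gene: the horizontal axis gives control 1 minus the mean of controls 2 to 5 and the vertical axis the mean of KO-labelled 1 and 2 minus the mean of KO-labelled 3 to 5, both in log2. Microglial genes (blue) and most early genes (orange) are negative on both axes, astrocyte identity genes (red) positive on both, and 7 of the 11 choroid plexus and ependymal genes (green) positive for controls and negative for KO-labelled arrays.

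The labelled genotype did not choose the sides and was tested with the side as a covariate (limma, Benjamini-Hochberg adjustment over 17712 genes). The side was drawn from measured values on the same arrays, so tests that use it are conditional on that split. No gene passed an adjusted p of 0.05 (0 of 17712, 0%), the smallest adjusted p was 0.129, and 1787 genes had an unadjusted p under 0.05, 923 higher and 864 lower in the KO-labelled animals. Without the side in the model 0 genes passed as well, the smallest adjusted p was 0.654 and 1334 had an unadjusted p under 0.05. The median SE of the genotype difference was 0.104 with the side in the model and 0.112 without it. When 1 array was left out, Tlcd1 was called without control 1, and 3 genes were called without control 4 and 3 without control 5.

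The genes with the smallest p are named as a ranking, none of them past the threshold. Cyp4f15, a cytochrome P450, was 8.83, 7.97, 7.83, 8.14 and 7.82 in controls 1 to 5 and 9.47, 9.40, 8.48, 8.54 and 8.66 in KO-labelled 1 to 5. Its genotype difference was 0.62 ± 0.09 with the side in the model (limma, adjusted p = 0.129) and 0.79 without it (adjusted p = 0.654). It was also higher on the low side by 0.88 ± 0.10, and within each side the KO-labelled arrays were above the controls. Akap6, Unc13c, Atp13a4 and Tmod2 had genotype differences of 0.60, 0.59, 0.52 and 0.45. In the other direction Cnbd2, the prostaglandin-degrading enzyme Hpgd, the microglial receptor Gpr34 and the ribosomal genes Rps4x and Rpl35 had -0.64, -0.54, -0.63, -0.51 and -0.45. Each of these 9 genes had an adjusted p of 0.145 in limma.

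On the 7 high arrays alone 1 gene passed (0.00565% of genes), and 1577 had an unadjusted p under 0.05, 591 higher and 986 lower in the KO-labelled animals. The gene was Tlcd1, which encodes a membrane protein that affects the fatty acid composition of phospholipids. It was 8.97, 8.57, 7.96 and 9.02 in controls 2 to 5 and 10.92, 10.31 and 10.84 in KO-labelled 3 to 5, a difference of 2.06 ± 0.23 (limma, adjusted p = 0.0229). The low arrays did not follow: control 1 was 9.95 and KO-labelled 1 and 2 were 9.71 and 9.03. The call was lost without control 2 (adjusted p = 0.0544), control 3 (0.191), KO-labelled 3 (0.125) or KO-labelled 5 (0.216) in limma. Without control 5, 19 genes were called on the high arrays, and without KO-labelled 4 there were 2. Controls 2 and 3 were the Xist-high arrays, no KO-labelled array was Xist-high, and no fit had a term for sex. With both of these controls left out, 0 genes were called on the high arrays (Tlcd1, limma adjusted p = 0.266).

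The list medians of the genotype difference are given from the 3 fits side by side. The low side holds 2 of the 5 KO-labelled and 1 of the 5 control arrays, so adding the side moves a gene's genotype difference by an amount that its low minus high difference fixes, and the change between these fits is no result about genotype. The 71 microglial genes had a median of -0.52 without the side, -0.30 with it and -0.27 on the high arrays alone. All 71 were lower in the KO-labelled animals in each of the 3 fits, beside 9430, 9439 and 9917 of all 17712 genes. Cx3cr1 itself had genotype differences of -0.50, -0.31 and -0.21 in these fits, so the side did not level its signal between the genotypes. How much of the list differences goes with this was not tested. Genes of a list are not independent replicates. The 142 astrocyte genes had medians of 0.38, 0.22 and 0.17. With the side in the model 125 of 142 were higher, beside 8273 of all 17712 genes. Ribosomal protein genes had medians of -0.38, -0.34 and -0.37, and 28 of 29 were lower with the side in the model. Respiratory chain genes had -0.04, -0.10 and -0.11. The median over all genes was -0.01, -0.01 and -0.02, and no gene of these lists passed the test.

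**Figure D5:**
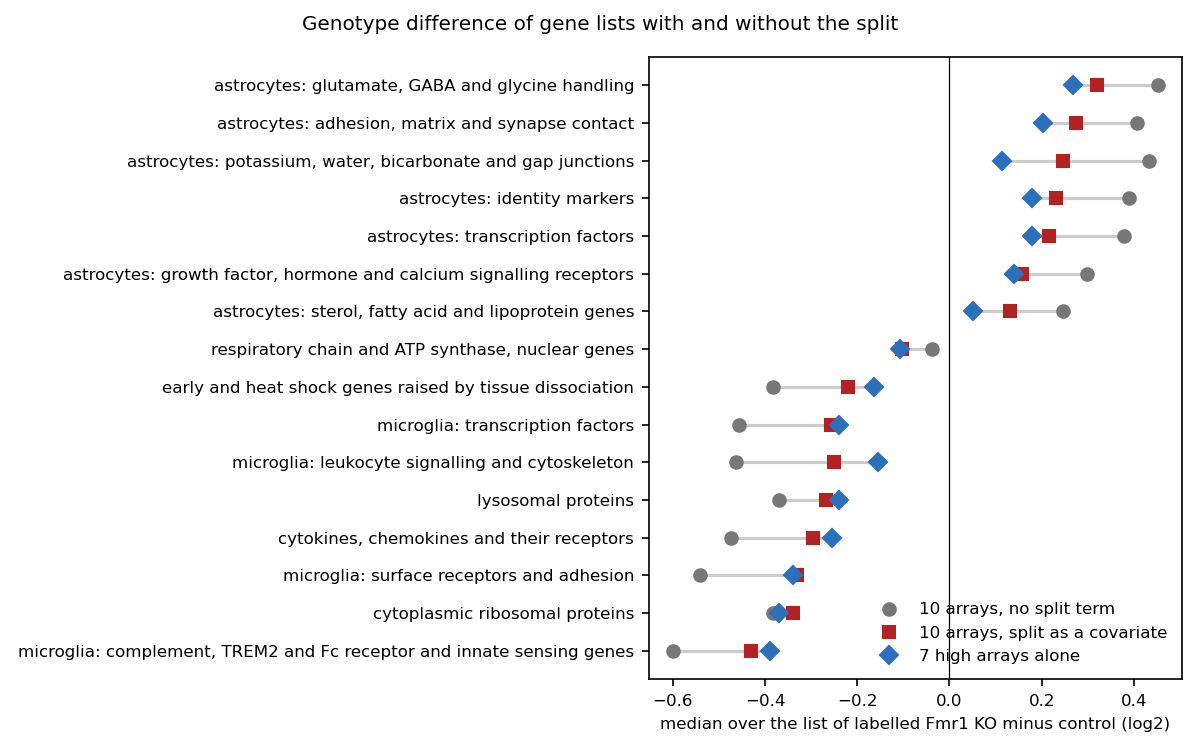
Median log2 difference, KO-labelled minus control, over the genes of each list (rows) from 3 fits: all 10 arrays without the side (grey circles), all 10 with the side as a covariate (red squares) and the 7 high arrays alone (blue diamonds). The microglial lists are below 0 and the astrocyte lists above 0 in all 3 fits, and the ribosomal list lies between -0.38 and -0.34.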

How the data were processed

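RNA of 10 sorted samples was hybridised to Affymetrix whole-transcript arrays, 1 sample an array. The deposited table holds the authors' log2 values for 33793 probe sets, from 4.31 to 13.9, with array medians of 6.11 to 6.24. The authors used GeneSpring, per the series' design text, but how the values were normalized is not given in the sources used here. Platform annotation names 1 gene for 23521 probe sets, several for 1814 and none for 8458. Each gene was read from its brightest single-symbol probe set, and those with a mean under the 25th percentile (5.32) were left out, which gave 17712 genes. Levels are not compared between genes. Cx3cr1 has 1 such probe set.

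One model with side and genotype was fitted to all genes in limma 3.58.1 (R 4.3.3; lmFit and eBayes, 7 residual degrees of freedom, 5 on the high arrays), with two-sided tests and a Benjamini-Hochberg threshold of 0.05. The side was drawn from measured values on these arrays, so its coefficient is given with an SE and no p-value. The pipeline was tested on simulated data. The number of arrays limits the precision. The arrays, the sides and all 34 gene lists (598 genes, 524 measured, 24 in more than 1 list) were chosen with earlier results of these data known. Named are Cx3cr1 and Fmr1, up to 5 genes a list with the largest differences, the brightest member in lists of other cell types, 15 genes per direction with the largest difference among those without overlap, and 5 per direction by genotype p. Predicted genes, small RNAs, pseudogenes and olfactory and vomeronasal receptors were counted and not named (100 lower and 123 higher without overlap). Other names (P2ry12, Tmem119, Csf1r, Adgrg1, C1qc, Adora3, Spi1, Cd63, Csf1, Sparc, Slc16a7, Slc1a2, Slc1a3, Aqp4, Glul, Cd53 and Tlcd1) were added after their values were seen. Lists not described further were erythroid (Slc4a1, -0.15), the Fmr1 family (Fxr1 0.09, Fxr2 -0.16) and sex-linked genes (Uty 0.90 ± 0.63, Kdm5d 0.60 ± 0.50, Eif2s3y 0.85 ± 0.68). These Y chromosome genes were low only on the Xist-high controls 2 and 3, both on the high side. Alternatives covered normalization, filter, probe set choice, covariates, fit settings, a replicate block and arrays left out.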

Additional observations from a re-analysis of the deposited data

Results flagged for a closer look

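Among 392 pairs of a named gene and a group of 5 arrays, 24 had an array that stood apart from the other 4 of its group by Dixon's criterion, which chance meets in about 1 in 20 groups. Of these 24, 14 were on control 1, the only control on the low side. Most named genes were chosen for a large difference between the sides, which favours flags on control 1. These counts therefore cannot be set against the rate of chance. Control 1 was low for Tyrobp (8.70, others 9.55 to 9.86), Unc93b1 (10.05, others from 10.72), Mef2c (8.51, others from 9.53), Sall1 (9.23, others from 10.06), Cd68 (9.66, others from 10.82), Lgmn (11.19, others from 11.90), Ctss (11.75, others from 12.28), Ccl3 (9.93, others from 11.02), Tgfb1 (8.80, others from 9.74), Pde3b (9.28, others from 10.24) and Hpgd (9.0, others from 9.79). It was high for Kcnj16 (7.86, others up to 7.35), Fgfr3 (10.49, others up to 9.70) and Tmod2 (8.66, others up to 8.19).

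The other 10 were spread over 5 arrays. Control 2 stood apart for Aurka (6.61), Fxr1 (8.46) and Etnppl (7.40), control 3 for Ngp (5.63) and Pdgfra (5.89), and control 5 for Cybb (8.83, others 6.08 to 6.85), Plac8 (7.03) and Cnbd2 (7.96). KO-labelled 1 stood apart for Dcn (7.35) and KO-labelled 3 for Snap25 (6.14).

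In 5 named genes every low array differed one way from every high array of the controls and the opposite way in the KO-labelled arrays. Among the controls the low side was control 1 alone. The share of all genes with this pattern was not counted, so the number is no result about these genes. The low minus high differences within controls and within KO-labelled arrays were -0.42 and 0.06 for Mbp, 0.81 and -1.13 for Kl, 0.64 and -0.92 for Clic6, 0.25 and -0.62 for Ttr, and 1.32 and -1.32 for Tlcd1. The interaction of genotype and side, tested in limma over all genes, gave adjusted p-values of 0.683 for Mbp, 0.431 for Kl, 0.474 for Clic6, 0.477 for Ttr and 0.204 for Tlcd1, so none passed.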

How the results depend on the processing

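Over 85 results and 1547 alternatives, 1459 alternatives kept the direction and the call or stayed within the spread, 69 moved, 8 lost and 7 gained a call, and 4 reversed. The single call on the high arrays (Tlcd1) became 0 calls with quantile normalization (2.12, limma adjusted p = 0.0953), equal medians (2.05, 0.0672), no filter (2.06, 0.342) or without the Xist-high controls 2 and 3 (2.20, 0.266). It became 3 calls with trend and robust settings, 3 with a replicate block and 156 with array weights. Array weights also gave 7 calls in place of 0 with the side as a covariate. Without a genotype term 81 genes in place of 37 were at least 2-fold higher. Leaving out each array in turn gave 0 to 19 genotype calls on the high arrays and 0 to 3 with the side. It gave 97 to 284 genes at least 2-fold lower and 28 to 174 at least 2-fold higher. Without overlap, 1318 to 1971 genes were lower and 1830 to 3144 higher. Leaving out an array can only keep or raise these last counts, so their rise is no check. Same-numbered arrays had correlations of deviations of 0.525, -0.015, 0.191, 0.002 and 0.150, and no control array correlated best with its own number. Both arrays numbered 1 were on the low side. The sides enter these correlations, so they cannot decide whether the replicate numbers pair the arrays. With a replicate block, in which the split rests on the arrays numbered 2, 297 genes were at least 2-fold lower and 456 at least 2-fold higher, 0 genotype calls were made with the side, and the medians of 4 lists changed sign: fibroblasts -0.26, oligodendrocytes -0.08, precursors -0.18 and reactive astrocytes -0.037. Of the list medians, 24 other values moved by more than the spread. Fam181b was 0.59 rather than 1.08 with the mean of its probe sets. Causes of these differences were not tested.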
